A study of Rattus norvegicus with 6 samples.

Results

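The genes described here make, sense and relay prostaglandins and leukotrienes, the lipid mediators that cells form from arachidonic acid. They are the 10 rows of the count table named Ptgs1, Ptgs2, Ptges, Ptgds, Ptger2, Ptger3, Ptger4, Alox5, Alox5ap and Alox15, out of 29884 genes in all. Messenger RNA was sequenced from sciatic nerve of wild type rats with chronic constriction injury (CCI), a ligature model of neuropathic pain, in 3 untreated libraries and in 3 libraries from injured nerve that received a PLLA-PCL-RVC conduit. The conduit is a polymer nerve wrap that the series describes as piezoelectric and as carrying ropivacaine, a local anaesthetic. Every library therefore carries the injury, and the groups differ in the conduit and its drug together; an uninjured nerve and a conduit without ropivacaine were not analysed here. The labels give no strain, sex, age, time after injury or number of animals per library, so a p-value reflects only how far these libraries spread, and part of that spread may be technical.

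Cyclooxygenases turn arachidonic acid, released from membranes by phospholipases, into a shared precursor from which separate synthases make prostaglandin E2, prostaglandin D2, prostacyclin and thromboxane. Lipoxygenases act on the same fatty acid, and 5-lipoxygenase needs its membrane partner, the 5-lipoxygenase-activating protein, to start leukotriene synthesis. In injured nerve these mediators are known from macrophages and other invading leukocytes as well as from resident cells, and prostaglandin E2 sensitises pain fibres through its receptors.

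In conduit-treated nerves 5 of the 10 genes fell and 1 rose. Those that fell were the constitutive cyclooxygenase Ptgs1, the prostaglandin E2 receptors Ptger2 and Ptger4, 5-lipoxygenase (Alox5) and its activating protein (Alox5ap). The gene that rose was Ptgds, which makes prostaglandin D2. Ptgs2, Ptges, Ptger3 and Alox15 did not pass the test. The test was edgeR's quasi-likelihood F test on the counts of all 15464 genes kept by its low-count filter, and a gene was called at a Benjamini-Hochberg adjusted p under 0.05 over all of them. Of all tested genes 50.2% were called, 26.2% as lower and 24.0% as higher in conduit nerves, so the share of these genes that was called is near that of genes at large. With scaling by library totals alone the median log2 fold change of all genes moved by -0.386. The share of called genes that were higher went from 47.8% to 25.9%. All 10 genes kept their direction under that scaling. A shift of that size could not turn any of them, as the smallest value above 0 was 1.08 (Alox15). The median log2 fold change was -1.39 over the 10 genes and -0.043 over all tested genes. All 18 macrophage markers followed here fell as well, with a median log2 fold change of -2.97, and in bulk tissue fewer cells of a type and less RNA per cell cannot be told apart.

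The libraries held 38401951 to 42225086 counts. Per the labels, 2 batches make up the untreated group and 3 others the conduit group, and none spans both, so batch and treatment cannot be told apart and no within-batch comparison exists. Schwann cell markers were present in every library, as the tissue label implies, with 12 markers summing to 11954 to 27668 CPM in untreated nerves and 163427 to 211943 CPM in conduit nerves; all 12 rose. CPM is a gene's count scaled to the size of its library, here after TMM scaling (trimmed mean of M-values). Untreated replicate 1 stood apart in skeletal muscle transcripts, with 10 markers summing to 12760 CPM against 95.0 and 9.37 CPM in the other untreated libraries and 3.67 to 9.85 CPM in the conduit libraries. Without that library the same 5 genes were called lower and Ptgds higher, and Ptges was called lower as well.

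Among the 6 genes that changed, 5 have an entry in the RefSeq promoter table for the GRCr8 assembly. Their sequences are shown because these genes moved, 4 down and 1 up. Each is the 250 bases before the annotated start, 5′ to 3′ on the gene's strand, and capitals mark letters that match one of the motifs searched.
Ptgs1 (chr3:39981169-39981418, plus strand): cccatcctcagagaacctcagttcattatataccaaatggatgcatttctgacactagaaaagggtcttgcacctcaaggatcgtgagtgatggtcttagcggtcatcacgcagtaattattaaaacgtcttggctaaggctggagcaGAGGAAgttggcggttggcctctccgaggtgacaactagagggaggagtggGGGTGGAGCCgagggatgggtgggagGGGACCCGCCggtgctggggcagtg
Ptger2 (chr15:20696796-20697045, plus strand): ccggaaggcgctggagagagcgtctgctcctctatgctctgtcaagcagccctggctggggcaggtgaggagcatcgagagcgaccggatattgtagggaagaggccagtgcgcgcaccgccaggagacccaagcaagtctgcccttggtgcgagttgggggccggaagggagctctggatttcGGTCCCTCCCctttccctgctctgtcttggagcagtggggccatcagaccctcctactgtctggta
Ptger4 (chr2:56073523-56073772, minus strand): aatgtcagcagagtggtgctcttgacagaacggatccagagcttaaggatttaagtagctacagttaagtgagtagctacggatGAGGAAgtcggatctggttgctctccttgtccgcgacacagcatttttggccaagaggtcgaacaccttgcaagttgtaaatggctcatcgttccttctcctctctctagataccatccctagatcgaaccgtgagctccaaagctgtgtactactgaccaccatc
Alox5 (chr4:151251127-151251376, minus strand): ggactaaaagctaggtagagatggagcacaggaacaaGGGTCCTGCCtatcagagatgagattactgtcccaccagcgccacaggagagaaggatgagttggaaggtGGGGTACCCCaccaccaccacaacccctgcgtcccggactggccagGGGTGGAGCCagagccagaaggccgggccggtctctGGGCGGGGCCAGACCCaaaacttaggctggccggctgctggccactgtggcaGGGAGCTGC
Ptgds (chr3:28682979-28683228, minus strand): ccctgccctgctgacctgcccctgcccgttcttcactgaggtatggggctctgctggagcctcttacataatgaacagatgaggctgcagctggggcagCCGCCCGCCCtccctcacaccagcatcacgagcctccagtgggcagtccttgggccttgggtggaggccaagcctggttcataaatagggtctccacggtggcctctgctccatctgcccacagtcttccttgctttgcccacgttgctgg

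The search covered windows of 300 bases (250 before and 50 after the start) on both strands. The TATA box was searched as TATAAA. The AP-1 letters were TGANTCA, where N is any base. The cyclic AMP response element (CRE) was searched as TGACGTCA. The NF-kappaB class motif was 3 G, any 5 bases and 2 C. The C/EBP class was searched as TTGCNNAA. For the ETS and PU.1 class the letters were GAGGAA. The GC box was searched as GGGCGG, and the E-box as CACGTG. The NF-kappaB class motif can overlap the GC box, and does so in Alox5. The ETS and PU.1 class letters stood 102 bases before the start of Ptgs1 and 166 bases before that of Ptger4, and 3 of the 8 promoters found for the 10 genes hold them, as do 27.6% of 33469 rat promoters. The NF-kappaB class letters occurred in 6 of the 8 and in 47.3% of all promoters. The TATA box, AP-1 and CRE letters were in none of the 8 windows, against 14.2%, 7.33% and 1.83% of all promoters. Matches of letters are a description and show no binding.

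**Figure D1:**
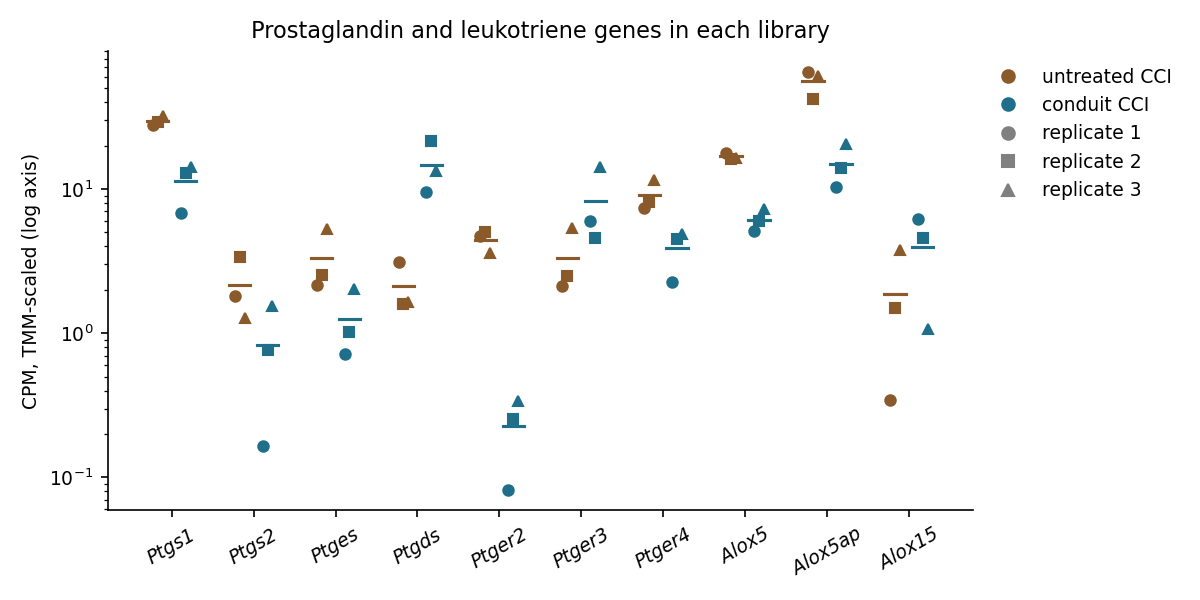
CPM of the 10 genes in each library (log axis), untreated CCI in brown and conduit CCI in blue, with a symbol for each replicate and a bar at the group mean. Ptger2 lies at 3.59 to 5.01 CPM in untreated and at 0.0825 to 0.3405 CPM in conduit libraries, and Ptgds is the called gene that lies higher in the conduit group.

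Cyclooxygenases make the committed step. Ptgs1, the form that many cells express at rest, was at 27.8, 29.3 and 32.1 CPM in untreated replicates 1, 2 and 3 and at 6.845, 12.9 and 14.2 CPM in conduit replicates 1, 2 and 3. Every conduit library lay below every untreated one, and the conduit libraries were spread more widely. The log2 fold change was -1.39 ± 0.26 (SE), a 2.63-fold lower level (edgeR adjusted p = 0.00396). Ptgs2, the form induced by inflammation and growth signals, was far less abundant, at 1.82, 3.37 and 1.27 CPM in untreated and 0.165, 0.763 and 1.545 CPM in conduit libraries. Conduit replicate 3 exceeded untreated replicate 3, so the groups overlapped. Its log2 fold change of -1.38 ± 0.73 was as large as that of Ptgs1 but did not pass (edgeR adjusted p = 0.154), and only 6 reads stood behind it in conduit replicate 1. Without conduit replicate 3 it was -2.18 and without conduit replicate 1 it was -0.89.

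Per length, Ptgs1 led Ptgs2 in all 6 libraries. In deposited FPKM (a fragment count corrected for both gene length and sequencing depth) Ptgs1 was at 11.1, 12.4 and 13.03 in untreated and 2.13, 3.94 and 4.597 in conduit libraries, and Ptgs2 at 0.462, 0.910 and 0.327 and at 0.03265, 0.148 and 0.319. Ptgs2 made up 4.42 ± 2.22% of the summed FPKM of both in untreated and 3.875 ± 2.50% in conduit nerves (SD, n = 3 per group; exact permutation test, two-sided, p = 0.7). The share ranged from 2.45% to 6.82% in untreated and from 1.51% to 6.49% in conduit libraries. The mean difference of -0.547 percentage points turned to 0.653 without untreated replicate 2 and to 0.636 without conduit replicate 1, so these libraries show no direction for the balance of the cyclooxygenases.

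Of the prostaglandin synthases Ptgds and Ptges, only Ptgds was called. Ptgds, lipocalin-type prostaglandin D2 synthase, which meningeal and barrier cells make in quantity, was at 3.14, 1.595 and 1.63 CPM in untreated and at 9.48, 21.4 and 13.3 CPM in conduit libraries. No library of one group reached the other. It rose by a log2 fold change of 2.79 ± 0.41, or 6.93-fold (edgeR adjusted p = 0.00124), and 3.17% of all tested genes had a higher log2 fold change. Ptges, the inducible membrane-bound prostaglandin E2 synthase that works with Ptgs2, was at 2.14, 2.52 and 5.29 CPM in untreated and 0.715, 1.02 and 2.02 CPM in conduit libraries. The groups did not overlap, but conduit replicate 3 came close to untreated replicate 1, and the log2 fold change of -1.40 ± 0.52 did not pass (edgeR adjusted p = 0.0556). DESeq2 called it lower (adjusted p = 0.0170), as did edgeR without untreated replicate 1 (0.0456) or without conduit replicate 3 (0.0276). Without untreated replicate 3 it was -0.90 (0.188), without conduit replicate 1 it was -1.11 (0.148), without conduit replicate 2 it was -1.26 (0.153), and without untreated replicate 2 it was -1.57 (0.0623). Ptges held 29.2%, 48.9% and 66.2% of the summed FPKM of Ptges and Ptgds in untreated replicates 1, 2 and 3 and 4.36%, 2.80% and 8.42% in the conduit replicates. The FPKM ranges of Ptges and Ptgds overlapped in untreated nerves, and Ptgds exceeded Ptges in each conduit library (test of the share, exact permutation test, two-sided, p = 0.1, the smallest that 3 against 3 libraries allow, and 0.15 adjusted over 6 shares).

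Ptger2, Ptger3 and Ptger4 encode the EP2, EP3 and EP4 receptors of prostaglandin E2. EP2 and EP4 raise cyclic AMP, and EP3 mostly lowers it. Ptger2 had 219, 248 and 156 counts in the untreated libraries and 3, 9 and 13 counts in the conduit libraries, or 4.74, 5.01 and 3.59 CPM against 0.0825, 0.254 and 0.3405 CPM. The groups were far apart, and the log2 fold change of -4.28 ± 0.49, a 19.4-fold lower level (edgeR adjusted p = 0.000471), was lower than that of all but 1.42% of the tested genes. It reached the low-count filter in 3 untreated libraries and 1 conduit library, so it entered the test through the group where it was high. Ptger4 was at 7.40, 8.18 and 11.55 CPM in untreated and 2.25, 4.52 and 4.85 CPM in conduit libraries. Its groups did not overlap, and it fell by 1.22 ± 0.34 on the log2 scale (edgeR adjusted p = 0.0192). Without untreated replicate 3, where it was highest, the log2 fold change was -1.005 and did not pass (adjusted p = 0.0614).

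Ptger3 leaned the other way without passing. It was at 2.12, 2.48 and 5.36 CPM in untreated and 5.99, 4.58 and 14.1 CPM in conduit libraries, with untreated replicate 3 above conduit replicate 2. The log2 fold change was 1.31 ± 0.52 (edgeR adjusted p = 0.0722). DESeq2 called it higher (adjusted p = 0.0170), as did edgeR without untreated replicate 3 (1.84, adjusted p = 0.0310), and without conduit replicate 3 the value was 0.71. Ptger3 was highest in replicate 3 of each group. Marker sums of adipocytes (1505 and 2610 CPM) and mast cells (110 and 176 CPM), among others, were highest there too. The part of these cells in the values of Ptger3 was not tested. In the RefSeq table for GRCr8 uncharacterised gene models overlap Ptger2 and Ptger4. Both models also have rows of their own in the count table, and their counts are not given here. The sources used here do not say whether strand was counted, so reads in the overlaps may not have been told apart.

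Within each library the 3 receptors were weighed per length. Ptger4 led in untreated nerves, with 47.1%, 47.5% and 52.1% of their summed FPKM, Ptger2 held 37.2%, 35.8% and 19.95%, and Ptger3 held 15.6%, 16.7% and 28.0%. In conduit nerves Ptger3 led with 74.6%, 52.3% and 75.6%, Ptger4 held 24.3%, 44.6% and 22.4%, and Ptger2 held 1.095%, 3.095% and 1.94%. Groups did not overlap in any of these shares. The mean share of Ptger3 went from 20.1 ± 6.84% to 67.5 ± 13.2% and that of Ptger2 from 31.0 ± 9.60% to 2.04 ± 1.00% (SD, n = 3 per group). That of Ptger4 went from 48.9 ± 2.76% to 30.4 ± 12.3%. Each of the 3 tests gave p = 0.1 (exact permutation, two-sided), the smallest possible with 3 libraries a group, and 0.15 adjusted over 6 shares. The 3 shares sum to 100% and are not independent. They leave out Ptger1, which also encodes a prostaglandin E2 receptor. It was at 0.4414, 0.5085 and 0.5806 FPKM in untreated and 0.7617, 1.034 and 1.001 FPKM in conduit libraries. In conduit replicate 2 Ptger1 exceeded Ptger3 (0.6185 FPKM), and in conduit replicates 1 and 3 Ptger3 was higher (0.824 and 2.024 FPKM). With single libraries left out the difference for Ptger3 ran from 43.4 to 55.0 percentage points.

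**Figure D2:**
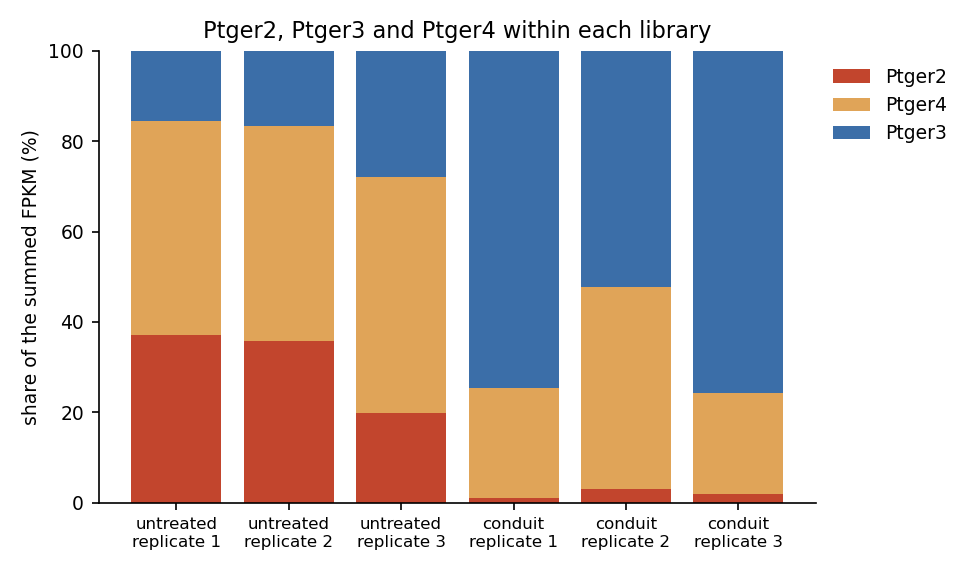
Share of Ptger2, Ptger3 and Ptger4 in their summed FPKM (percent) in each of the 6 libraries, 1 stacked bar per library. Ptger3 holds 15.6% to 28.0% of the bar in untreated and 52.3% to 75.6% in conduit libraries, while Ptger2 shrinks to 1.095% to 3.095%.

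Leukotriene synthesis starts with Alox5 and Alox5ap. Alox5ap was the most abundant of the 10 in untreated nerves, at 65.1, 42.0 and 60.9 CPM, and was at 10.25, 14.02 and 20.35 CPM in conduit libraries. The groups did not overlap. It fell by 1.91 ± 0.28 on the log2 scale, or 3.76-fold (edgeR adjusted p = 0.00131). Alox5 was at 17.7, 16.2 and 16.5 CPM in untreated and 5.14, 5.96 and 7.255 CPM in conduit libraries, with a coefficient of variation of 4.52% and 17.4%, the lowest of the 10 genes in either group. It fell by 1.46 ± 0.18 on the log2 scale, or 2.74-fold (edgeR adjusted p = 0.000583). Leaving out any 1 library kept both calls.

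Alox15, which oxygenates arachidonic and linoleic acid at other positions and feeds lipoxin synthesis, varied most within the untreated group. It was at 0.346, 1.49 and 3.77 CPM in untreated and 6.21, 4.58 and 1.07 CPM in conduit libraries, and the groups overlapped. The log2 fold change of 1.08 ± 0.87 did not pass (edgeR adjusted p = 0.333), and leaving out single libraries gave values between 0.59 (no untreated replicate 1) and 2.10 (no untreated replicate 3). Alox5 held 98.55%, 93.5% and 85.4% of the summed FPKM of Alox5 and Alox15 in untreated and 52.4%, 63.4% and 90.0% in conduit libraries (exact permutation test, two-sided, p = 0.2, and 0.24 adjusted over 6 shares). Conduit replicate 3 lay within the untreated range.

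**Figure D3:**
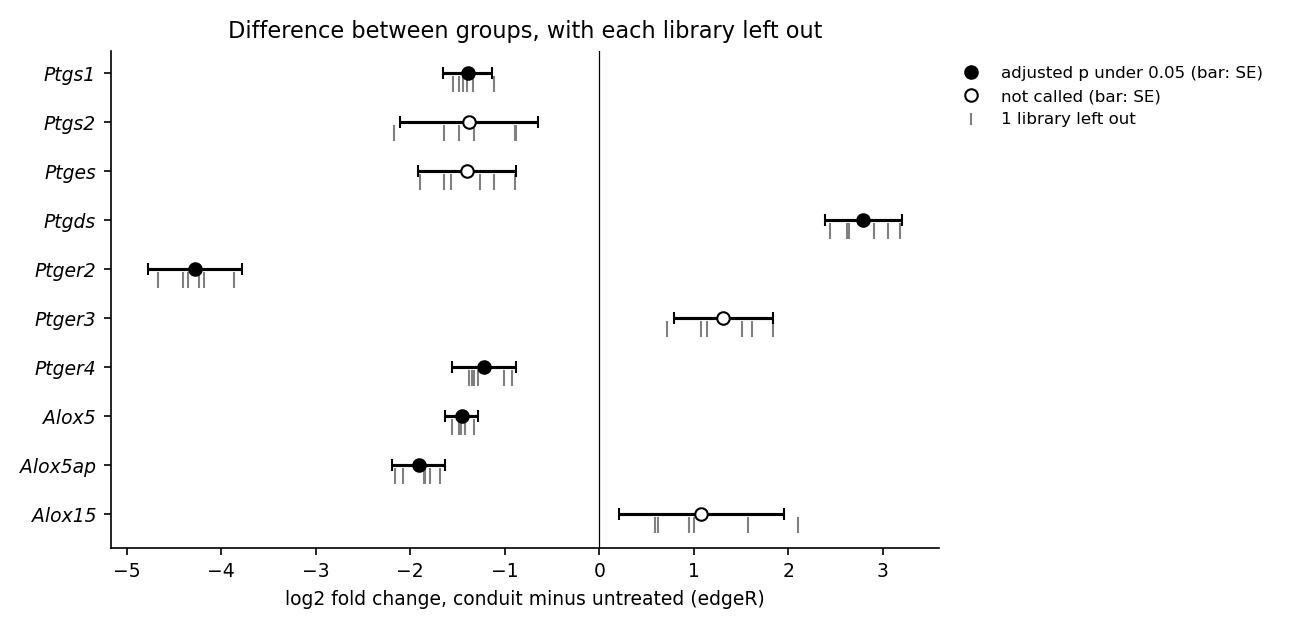
Log2 fold change (conduit minus untreated) of each gene from edgeR, with bars of 1 SE, filled points for called genes and grey ticks for the value with each library left out in turn. Ptger2 is the lowest at -4.28 and Ptgds the highest at 2.79, and no tick crosses 0.

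By level per length, the order of the genes differed between groups. In untreated nerves mean FPKM was 68.0 for Alox5ap, 12.2 for Ptgs1 and 6.92 for Alox5, and these 3 did not overlap with their neighbours in the order. Ptgds (3.18) and Ptges (3.02) overlapped each other, Ptger4 followed at 1.415 apart from both its neighbours, and Ptger2 (0.860), Ptger3 (0.601), Alox15 (0.580) and Ptgs2 (0.566) each overlapped the next. In conduit nerves Ptgds was first at 16.9, though its range of 10.8 to 24.0 overlapped that of Alox5ap, 9.49 to 19.6, which came second at a mean of 14.0 and lay above all Ptgs1 values. Ptgs1 (3.56), Alox5 (1.94), Ptger3 (1.16), Alox15 (0.926), Ptges (0.880), Ptger4 (0.465), Ptgs2 (0.167) and Ptger2 (0.0336) followed, each overlapping the next in the order. The groups' libraries did not overlap in 7 of the 10 genes, against 61.7% of all tested genes.

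The conduit libraries differed among themselves. Among the 10 genes, 8 were lowest in conduit replicate 1, 8 were highest in conduit replicate 3, and 7 were both. The share of all tested genes with that order is not given here, so these counts are no trait particular to the 10. The summed CPM of 18 macrophage markers was likewise lowest in the first and highest in the last of these libraries, at 551, 779 and 1014 CPM in conduit replicates 1, 2 and 3, and at 4677, 3873 and 4618 CPM in untreated replicates 1, 2 and 3. Marker sums of fibroblasts and endothelial cells, among others, had the same order in the conduit libraries, and those of Schwann cells and mast cells did not. The part of macrophages in the values of the 10 genes was not tested.

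Set against the macrophage markers, the genes that fell did not all move alike. Per 1000 CPM of summed macrophage markers Alox5ap was at 13.9, 10.8 and 13.2 CPM in untreated and 18.6, 18 and 20.1 CPM in conduit libraries, so this ratio was higher in the conduit group although Alox5ap itself fell. The ratio of Ptgs1 was 5.94, 7.57 and 6.95 against 12.4, 16.5 and 14.0. That of Alox5 was 3.78, 4.19 and 3.58 against 9.33, 7.66 and 7.16, and that of Ptger4 was 1.58, 2.11 and 2.50 against 4.09, 5.81 and 4.78. Ptger2 alone of the 5 had a lower ratio in conduit nerves, at 1.01, 1.29 and 0.777 against 0.150, 0.327 and 0.336. None of these 5 ratios overlapped between groups, and neither did those of Ptges, Ptger3 and Alox15, which were not called. The marker sum itself was 3873 to 4677 CPM in untreated and 551 to 1014 CPM in conduit libraries. A gene that stayed level would therefore have a higher ratio in the conduit group. The share of all tested genes whose ratio does not overlap is not given here, so the separation is no trait particular to these genes. For Alox5ap, Ptgs1, Alox5 and Ptger2 the direction depends on the markers chosen. Msr1 (-4.52), alone of these markers, fell more on the log2 scale than Ptger2 (-4.28). Lyz2 alone made up 1539 CPM of the untreated sum on average, and C1qc (-1.23), C1qb (-1.67), Ctss (-1.85) and C1qa (-1.85) fell less on the log2 scale than Alox5ap (-1.91), and C1qc also less than Ptgs1 (-1.39) and Alox5 (-1.46). The ratios were computed after the data were seen and have no test.

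**Figure D4:**
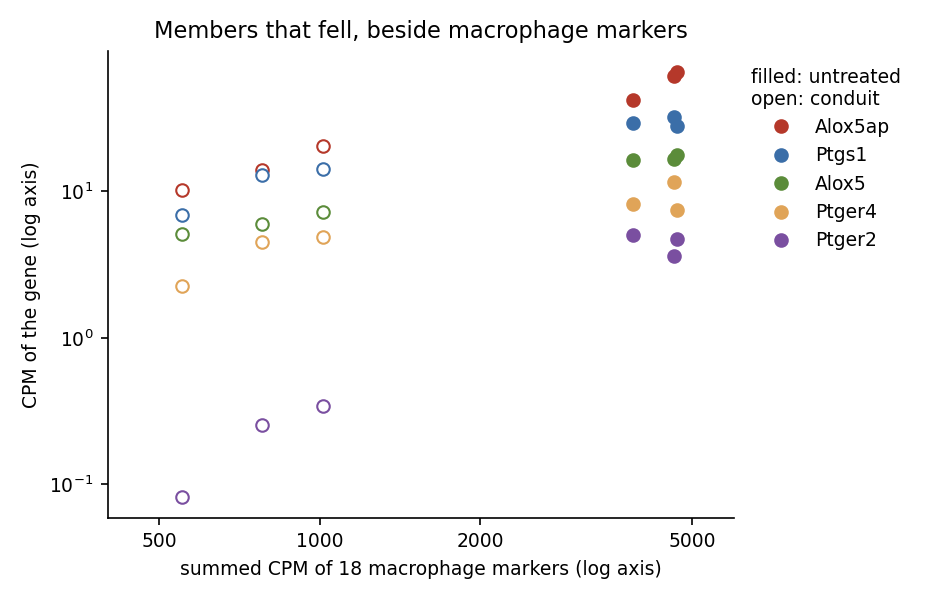
CPM of the 5 genes that fell (log axis) against the summed CPM of 18 macrophage markers (log axis) in each library, filled points for untreated and open points for conduit nerves. Marker sums lie at 3873 to 4677 CPM in untreated and 551 to 1014 CPM in conduit libraries, and Ptger2 is the gene that lies furthest down in the conduit group.

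Other cell types that make or sense eicosanoids were followed by their markers. Of 7 neutrophil markers tested 5 fell (median -2.68), with summed CPM of 62.9 to 127 in untreated and 10.1 to 18.5 in conduit libraries. Ltf was at 0 in every library, and Elane and Camp were too low to test. Mast cell markers did not move as a group. Of 8 tested, Tpsb2 alone rose, the median was 0.038, and the sums overlapped at 67.7 to 110 and 75.4 to 176 CPM. Of 11 T and NK cell markers 10 fell (median -2.41), with sums of 196 to 283 and 40.4 to 75.3 CPM. Most of these sums came from Cd4 (150.1 CPM on average in untreated and 52.9 in conduit nerves) and Cd8a (68.8 and 0.695 CPM). Cd3e, which also fell, was at 2.72 and 0.631 CPM. The sums are therefore not read as a level of T and NK cells, and which cells gave the Cd4 and Cd8a reads was not tested. Of 8 eosinophil and basophil markers 3 could be tested. Siglec5 (-1.63, edgeR adjusted p = 0.0139) and Ccr3 (-3.07, 0.0127) fell and Mcpt8 (1.47, 0.0122) rose, while Prg3 and Epx were at 0 in every library. Of 6 perineurial-type markers 5 rose (median 1.78), with sums of 347 to 555 CPM in untreated and 2046 to 2484 CPM in conduit nerves. Itgb4 alone gave 233.9 and 1653 CPM of these sums on average. A perineurial share was not told apart from the rise of the Schwann cell markers. Of 12 fibroblast markers 2 rose and 1 fell (median 0.091). Of 10 endothelial markers 4 fell and 1 rose (median -0.554), with sums of 1340 to 1778 CPM in untreated and 932.5 to 1226 CPM in conduit nerves. Of 10 pericyte and smooth muscle markers 2 fell (median -0.199), and the sums overlapped. The part of any of these cell types in the rise of Ptgds or the fall of the other genes was not tested.

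The wider eicosanoid pathway was read from a list of 71 further genes found in the table, of which 55 were tested. Of these 17 fell and 15 rose, with a median log2 fold change of -0.31 beside -0.043 for all tested genes. The share called, 58.2%, is near the 50.2% of all tested genes, and the counts at the single steps below stand beside that same background (24.0% higher and 26.2% lower). With library totals 25 were lower and 11 higher, and with limma on FPKM 22 or 23 were lower and 10 or 11 higher, so the balance of directions moves with the scaling and the unit. The number lower was 10 without untreated replicate 3 or without conduit replicate 1 and 9 without conduit replicate 2.

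At the first step, the release of arachidonic acid by phospholipases A2, 3 of 10 genes fell and 3 rose. Pla2g4a, the cytosolic enzyme that supplies cyclooxygenases and 5-lipoxygenase on stimulation, fell from 21.97 ± 6.58 to 7.39 ± 3.49 CPM (SD, n = 3; log2 fold change -1.57 ± 0.36). The secreted Pla2g2d, made by macrophages and dendritic cells in lymphoid tissue, fell from 77.1 ± 27.5 to 10.01 ± 6.55 CPM (-2.94 ± 0.48), and the lysosomal Pla2g15 was at -1.20 ± 0.33. The secreted Pla2g5 rose from 3.49 ± 0.871 to 76.8 ± 19.3 CPM (4.46 ± 0.28), the calcium-independent Pla2g6 from 19.3 ± 1.77 to 61.9 ± 4.49 CPM (1.68 ± 0.13) and Plaat3, a phospholipase abundant in fat, from 79.0 ± 17.5 to 414 ± 57.6 CPM (2.39 ± 0.21). Of 8 adipocyte markers Lep (4.21, edgeR adjusted p = 0.00128) and Cidec (2.76, 0.0394) rose and none fell (median 1.46). The 8 markers summed to 532, 818 and 1505 CPM in untreated replicates 1, 2 and 3. In conduit replicates 1, 2 and 3 the sums were 552, 693.5 and 2610 CPM. Plaat3 was at 77.2, 62.5 and 97.4 CPM in the same untreated libraries and at 447.1, 447.2 and 347.3 CPM in the conduit ones. The part of fat in the values of Plaat3 was not tested.

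Among 8 other prostanoid synthases 3 fell and 1 rose. Tbxas1, thromboxane synthase, fell from 26.5 ± 4.52 to 3.91 ± 1.17 CPM (-2.76 ± 0.26, edgeR adjusted p = 0.000188), and Ptgis, prostacyclin synthase, from 16.5 ± 5.80 to 4.81 ± 2.00 CPM (-1.78 ± 0.37). Ptges3, a cochaperone also described as a cytosolic prostaglandin E2 synthase, was at -0.46 ± 0.15. Akr1b1, aldose reductase, which can also make prostaglandin F2alpha, rose from 266 ± 37.6 to 1137 ± 164 CPM (2.10 ± 0.18). Hpgds, the blood cell form of prostaglandin D2 synthase, was at 3.42 ± 1.82 and 3.96 ± 1.88 CPM and did not pass (0.21 ± 0.48, edgeR adjusted p = 0.733), unlike Ptgds. The difference between the 2 synthases was not tested.

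Of 6 other prostanoid receptor genes tested 2 fell and 1 rose. Ptger1, which encodes the calcium-mobilising EP1 receptor and completes the prostaglandin E2 receptors, rose from 1.34 ± 0.181 to 3.20 ± 0.515 CPM (1.26 ± 0.29, edgeR adjusted p = 0.00887). Ptgdr2, the DP2 receptor of prostaglandin D2 on T helper cells and eosinophils, was at -1.38 ± 0.43 and Ptgfrn, a partner of the F receptor, at -0.98 ± 0.31. Ptgir, the prostacyclin receptor of pain fibres and vessels, was at -1.31 ± 0.47 (edgeR adjusted p = 0.0514), Ptgfr, the prostaglandin F receptor, at -0.76 ± 0.38 (0.138) and Tbxa2r, the thromboxane receptor, at 0.78 ± 0.29 (0.0595), and none of these passed.

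Of 7 genes for prostanoid transport and clearance 3 fell and 3 rose. Hpgd, which inactivates prostaglandins by oxidation, fell from 6.39 ± 1.28 to 0.964 ± 0.837 CPM (-2.72 ± 0.60), and Slco2a1, the prostaglandin uptake carrier, from 60.01 ± 21.6 to 13.1 ± 6.76 CPM (-2.20 ± 0.40). Ptgr1, a reductase that inactivates prostaglandin metabolites and leukotriene B4, was at -0.89 ± 0.28. Slco3a1, a broader organic anion carrier, rose from 55.5 ± 7.65 to 241 ± 41.1 CPM (2.12 ± 0.18), and the reductases Ptgr2 (0.64 ± 0.14) and Ptgr3 (0.58 ± 0.20) rose as well. With library totals Ptgr2 was at 0.25 (edgeR adjusted p = 0.207) and Ptgr3 at 0.21 (0.427), and neither passed there or with limma on FPKM (0.200 to 0.248 for Ptgr2 and 0.432 to 0.519 for Ptgr3).

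Of 5 other lipoxygenase genes found 2 were tested, and neither passed. Downstream of 5-lipoxygenase, 4 of 15 genes fell and 4 rose. Lta4h, which makes leukotriene B4, was at 56.6 ± 7.48 and 62.1 ± 1.61 CPM and did not pass (0.13 ± 0.13, edgeR adjusted p = 0.427). Ltc4s, which makes the cysteinyl leukotriene C4, was at 10.9 ± 5.23 and 4.68 ± 2.14 CPM and did not pass (-1.22 ± 0.48, adjusted p = 0.0666), though DESeq2 called it lower (0.0188). Mgst2, a microsomal enzyme that can make leukotriene C4 outside blood cells, fell from 26.8 ± 4.29 to 10.8 ± 3.49 CPM (-1.31 ± 0.25), and Mgst3, its relative, rose from 32.5 ± 6.42 to 112 ± 13.8 CPM (1.78 ± 0.18). Of the enzymes that trim cysteinyl leukotrienes, Dpep2 (-1.23 ± 0.26) and Ggt5 (-0.84 ± 0.24) fell and Ggt1 (1.14 ± 0.39) rose. Of the Cyp4f oxidases, which degrade leukotriene B4, Cyp4f5 (-0.58 ± 0.18) fell, and Cyp4f17 (0.66 ± 0.23) and Cyp4f4 rose. Cyp4f4 had 3, 1 and 0 counts in untreated and 22, 22 and 13 counts in conduit libraries. It passed the low-count filter through the conduit group alone, so its fitted log2 fold change of 4.05 ± 0.79 rests on a group near 0. With library totals and with limma on filtered FPKM, Ggt1 (0.75, edgeR adjusted p = 0.140, and limma 0.0873 and 0.105) and Cyp4f17 (0.27, 0.332, and limma 0.267 and 0.277) did not pass. Members of this family are similar in sequence, and reads may be split among them.

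Of 7 receptor genes for leukotrienes and related lipid mediators 2 fell and 3 rose. Cysltr1, the main receptor of cysteinyl leukotrienes, fell from 39.5 ± 22.8 to 9.54 ± 6.37 CPM (-2.05 ± 0.57), and Cmklr1, a receptor of chemerin and proposed for resolvin E1, from 34.6 ± 1.29 to 16.3 ± 7.41 CPM (-1.08 ± 0.30). Gpr37l1 (1.96 ± 0.16), Gpr37 (3.13 ± 0.34) and Lgr6 (4.91 ± 0.34) rose. Gpr37 and Lgr6 have been proposed as receptors for pro-resolving lipids, and Gpr37 and Gpr37l1 are also known from glia. Their rise stood beside that of the 12 Schwann cell markers, whose median log2 fold change was 2.93.

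**Figure D5:**
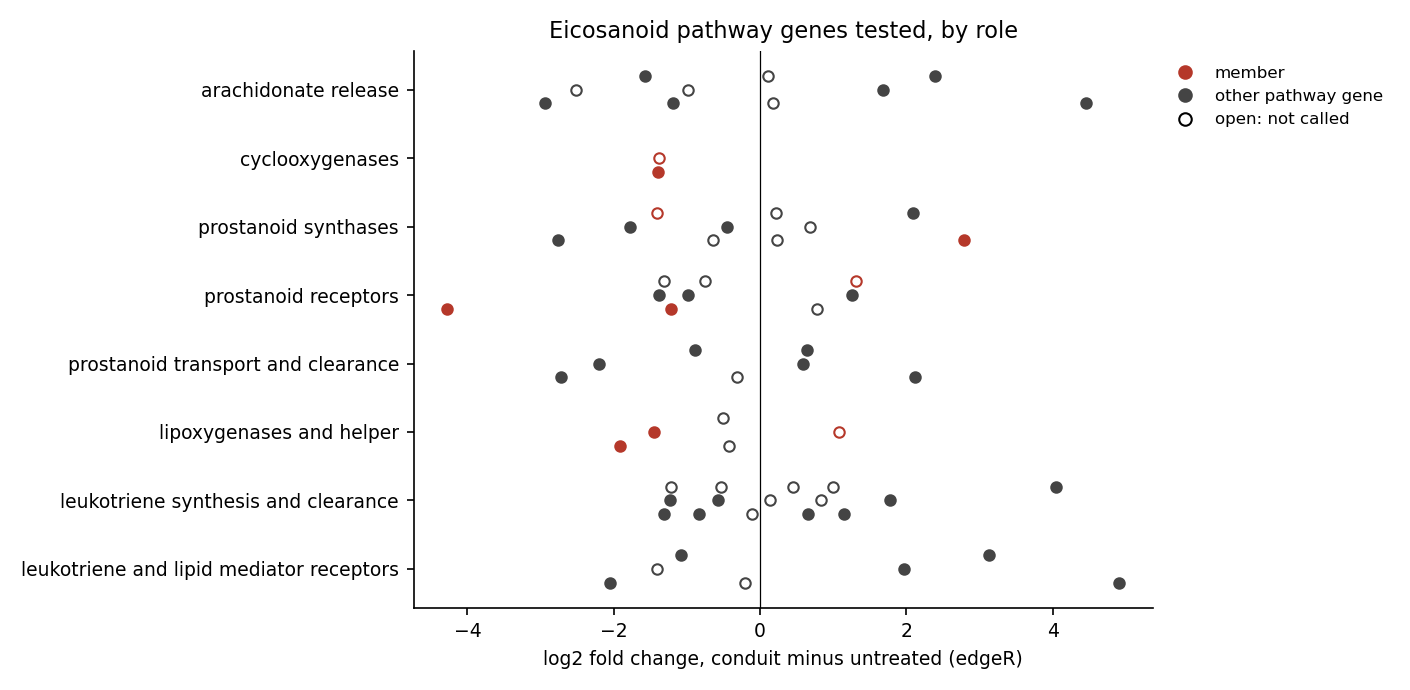
Log2 fold change (conduit minus untreated, edgeR) of the 65 tested eicosanoid pathway genes by role, the 10 main genes in red and others in grey, with filled points for called genes and open points for the rest; vertical offsets within a row only separate the points. Points lie on both sides of 0 in all rows but that of the cyclooxygenases.

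Several of these calls lay near the threshold. Of the 17 genes that fell, 9 lost their call when some 1 library was left out, as did 3 of the 15 that rose, each with its direction kept. The sizes often changed little, at -1.16 to -1.56 for Ptgdr2 (-1.38 with all libraries), -0.37 to -0.56 for Ptges3 (-0.46) and -0.97 to -1.53 for Pla2g15 (-1.20), and fewer libraries also give a weaker test. Without untreated replicate 3, conduit replicate 1 or conduit replicate 2 the calls of Pla2g15 (edgeR adjusted p = 0.0558, 0.0528 and 0.0645), Ptgfrn (0.101, 0.0941 and 0.0989) and Ggt5 (0.0711, 0.0598 and 0.0765) were lost. The same held for Ptgr1 (0.0833, 0.0990 and 0.0928), which also lost its call without untreated replicate 2 (0.0748). That of Cysltr1 ended when untreated replicate 2 (-1.47, adjusted p = 0.0546) or conduit replicate 2 (0.0681) was dropped, and that of Cmklr1 when untreated replicate 3 (0.0503) or conduit replicate 2 (0.0685) was. Ptgdr2 kept its call without untreated replicate 2 only (0.0571 to 0.115 otherwise), as Cyp4f5 did (0.0684 to 0.136), and Ptges3 kept it without untreated replicate 3 only (0.0657 to 0.175). With all libraries the call of Ptgdr2 was lost with DESeq2 (0.0590) and with no low-count filter (0.0667), and that of Ptges3 with RLE scaling (0.0535) and with no low-count filter (0.0586). Ggt1 was no longer called when conduit replicate 1 (0.125) or 2 (0.0993) was dropped. Ptgr3 stayed called when untreated replicate 3 or conduit replicate 2 was dropped (0.0713 to 0.114 otherwise), and Cyp4f17 when untreated replicate 1 or conduit replicate 3 was (0.0888 to 0.148 otherwise).

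The genes whose pattern over the 6 libraries was most like that of 3 members were taken from the 11339 or 11340 other tested genes with a mean of at least 5 CPM, by Pearson correlation of log2 CPM, as a description. For Ptgs1 they were Icam2 (r = 0.9975), Slc7a8 (0.9975) and Rarres1 (0.9957), and 1096 genes were above 0.9. For Alox5ap they were Cygb (0.9989), Tep1 (0.9976) and Blnk (0.9970), and 1581 genes were above 0.9. For Ptgs2 they were Pira2 (0.9873), Mindy1 (0.9806) and Arrb1 (0.9709), with 118 genes above 0.9. The libraries form 2 groups, so a gene that differs between the groups gains a high r from that alone. Pira2, a paired immunoglobulin-like receptor, was at 8.40, 22.3 and 8.24 CPM in untreated and 0.165, 1.78 and 8.62 CPM in conduit libraries.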

How the data were processed

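RNA of 6 rat sciatic nerve samples was sequenced after mRNA enrichment with the VAHTS Universal V10 kit, per the labels' protocols. The authors deposited raw counts per gene symbol and FPKM values per library. fastp, HISAT2, HTSeq, DESeq2 and the mRatBN7.2 build are named in the submitters' processing notes, and versions and strand settings are not given in the sources used here. Where 2 or more libraries had an FPKM above 0 (20504 genes), the deposited FPKM always equalled the count over 1 length and the library total (relative tolerance 0.0001). Gene tests used edgeR 4.0.16 in R 4.3.3 on the counts, with filterByExpr (minimum count 10), TMM scaling, the group alone as model and Benjamini-Hochberg adjustment over 15464 genes. The standard error came from dividing the log2 fold change by the root of its F value. All 10 genes passed the filter. Shares of summed FPKM were compared by exact permutation. As alternatives served DESeq2 1.42.0, 2 other scalings (RLE and library totals), 2 other filters, robust dispersions, a replicate block, limma 3.58.1 on log2(FPKM + 1) or log2(FPKM + 0.1), and each library left out. Named genes are the 10, the pathway genes called at each step, and some uncalled genes chosen for their role after their values were seen. The 10 genes and all lists were chosen with earlier results of these data known. Older symbols were matched through RefSeq synonyms, and Oxer1 had no match. The edgeR script was tested on simulated data.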

Additional observations from a re-analysis of the deposited data

How the results depend on the processing

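The direction of all 10 genes was the same under each of the 13 to 16 alternatives in which they could be fitted. Ptgs1, Ptgds, Ptger2, Alox5 and Alox5ap kept their calls in each of these, and Ptger4 lost its call without untreated replicate 3. Ptges was called in 8 of 15, Ptger3 in 3 of 16, and Ptgs2 and Alox15 in none. Log2 fold changes on log2(FPKM + 1) were smaller for low genes by construction, such as -0.84 for Ptger2. The number called higher among the 10 was 2 with DESeq2 and with a replicate block (1 to 2 with single libraries left out), and the number called lower 4 to 6. Of all tested genes 2291 were higher and 6554 lower with library totals, 2044 or 2034 were higher with limma on filtered FPKM, and 2254 were higher and 6263 lower with unfiltered FPKM. With single libraries left out 9 to 16 other pathway genes were lower and 12 to 15 higher. The difference in the Ptgs2 share was 1.40 percentage points with 0.1 FPKM added, and it ran from -1.85 to 0.653 with single libraries left out. Hpgds was at -0.16 with library totals, at -0.056 and -0.12 with limma on FPKM, at -0.19 and -0.056 when conduit replicate 3 or untreated replicate 1 was left out, and at most 0.730 with any other left out. Lta4h was at -0.26 with library totals and at -0.24 with limma on FPKM. The cause of these moves was not tested, apart from the scaling, which sets where 0 lies. Same-numbered replicates of the groups did not deviate together (correlations of deviations 0.144, -0.028 and 0.064), so the replicate block rests on a number alone. With it 3622 genes were higher and 3892 lower, and of the 10 genes Ptges (adjusted p = 0.0122) and Ptger3 (0.00915) were also called. Depth limits Ptger2 and Ptgs2 in conduit nerves, where 3 to 13 and 6 to 59 reads were counted per library.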
